A study of Mus musculus with 12 samples.

Results

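Thbd encodes thrombomodulin, the receptor on the surface of endothelial cells that binds thrombin. The gene lies on the minus strand of mouse chromosome 2, at chr2:148404471-148408188 in mm10, and its transcript of 3718 bases is a single exon with the coding sequence at bases 243 to 1976. All cytosines that any library listed from 5000 bp upstream of the transcription start to the gene end (chr2:148404471-148413188) were taken, which gave 61 of the 2419319 autosomal cytosines listed in the series. Of these, 46 lay in the coding sequence and 15 upstream of the start. Thbd was chosen by the beta values of its promoter in these same libraries, where the lines differed, so the difference between the lines is described here and not tested.

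Thrombin bound to thrombomodulin no longer clots fibrinogen efficiently and instead activates protein C, which slows coagulation. Thrombomodulin belongs to a small group of membrane proteins with a C-type lectin-like domain, and outside the endothelium it is made by several other cell types. Methylation of cytosines in CpG dinucleotides near a transcription start is commonly found at silent genes, while starts of active genes usually lie in unmethylated stretches. TET enzymes oxidise methylated cytosine, and succinate, which builds up when succinate dehydrogenase is lost, inhibits them.

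The series compared an experimental and a control line of immortalized mouse embryonic fibroblasts (iMEFs) by reduced representation bisulfite sequencing (RRBS), which reads methylation in fragments cut out at CpG-containing restriction sites. The experimental line carried R26M2rtTA/+, TetOcre and Sdhcfl/fl, so that doxycycline turned on Cre recombinase and removed the floxed part of both Sdhc copies. The control line carried R26M2rtTA/+, TetOcre and Sdhcfl/wt, received the same doxycycline, and kept 1 Sdhc copy that Cre does not cut. Each genotype was 1 line, with 1 library before doxycycline (day 0) and 1 on each of days 5, 9, 12, 16 and 20, so a genotype cannot be told apart from the line that carries it. The SDs and p-values below measure the spread between days of a single line.

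The deposited value is the percent of reads called methylated at a cytosine, and the text gives it as a beta value, which runs from 0 (no read methylated) to 1 (all reads methylated). No read counts came with it, so the depth behind a beta value is unknown and no interval was computed for single cytosines. The control day 12 library listed 932307 cytosines and the other 11 between 1394408 and 1716381. At Thbd it listed 16 of the 50 cytosines analysed below, against 36 to 50 in the others. Across the 66 pairs of libraries, at most 0.899% of values between 0 and 1 were identical, so no library appeared to be deposited under 2 labels. Beta values do not measure Sdhc recombination, which was not checked here.

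The listed Thbd cytosines fell into short groups separated by unlisted DNA. In all, 50 of the 61 were listed in at least 3 libraries of each line, 37 in the coding sequence and 13 upstream, and they spanned 1763 bp (chr2:148406756-148408518), from 1432 bp downstream to 330 bp upstream of the start. No cytosine was listed between 52 bp upstream and 500 bp downstream of the start, so the start itself and the whole 5' UTR were not seen. The GENCODE transcript of Thbd holds 117 CpGs, of which 39 had a listed cytosine. These were 39 of the 89 coding CpGs, 0 of the 13 in the 5' UTR and 0 of the 15 in the 3' UTR. The 50 cytosines were split wherever neighbours lay more than 60 bp apart, which gave 8 blocks that are lettered A (deepest in the coding sequence) to H (farthest upstream).

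The coding sequence under the blocks with the most cytosines is shown to place the values that follow. Both stretches are copied 5′ to 3′ from the GENCODE vM1 transcript of Thbd, and capitals mark the CpGs at which a cytosine was listed in at least 3 libraries of each line. The first covers bases 532 to 711 of the transcript, under blocks E and D, where 12 of 17 CpGs were listed. The second covers bases 826 to 956, under block C, where all 11 CpGs were listed, 5 of them on both strands.
Thbd blocks E and D: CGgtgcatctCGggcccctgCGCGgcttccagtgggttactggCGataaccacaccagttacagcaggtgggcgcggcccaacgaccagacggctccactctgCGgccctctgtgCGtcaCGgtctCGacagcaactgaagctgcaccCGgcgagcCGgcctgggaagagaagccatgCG
Thbd block C: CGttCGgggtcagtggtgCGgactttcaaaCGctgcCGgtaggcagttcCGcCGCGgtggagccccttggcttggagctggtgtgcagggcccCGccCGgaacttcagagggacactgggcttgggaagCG

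The experimental line was methylated across the whole Thbd stretch that was seen, and the control line was mostly not. Over the 50 cytosines, the mean beta value of a cytosine ran from 0.734 to 1.0 in the experimental line, with a median of 0.939. In the control line it ran from 0 to 0.494, with a median of 0.109. The experimental mean was higher at all 50 and higher by at least 0.5 at 46, where 0.985% of all cytosines listed in at least 3 libraries of each line had such a difference. Since Thbd was picked for this contrast, nothing is read from that excess.

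Single values were mostly near the extremes. Of 268 experimental values, 159 (59.3%) were exactly 1, none was 0, and 6 were below 0.5. Of 228 control values, 112 (49.1%) were exactly 0, 7 were exactly 1, and 27 were at 0.5 or above. The experimental libraries thus held almost only high values and the control libraries a wider mixture with low values in the majority.

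At 41 of the 50 cytosines every experimental library that listed the site lay above every control library, a pattern found at 0.791% of all cytosines listed as often. Of the 14 Thbd cytosines listed in all 12 libraries, 13 had it, against 0.937% of all cytosines in all 12. All 14 had a mean difference of at least 0.5, against 0.533% of all. At the other 9 of the 50, the highest control value came from day 0 at 5, from day 16 at 3 and from day 5 at 1. A control value of exactly 1 was the highest at 7 of these 9. The overlaps therefore sat in a few control libraries, and the lowest experimental value at 5 of the 9 came from day 16.

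**Figure D1:**
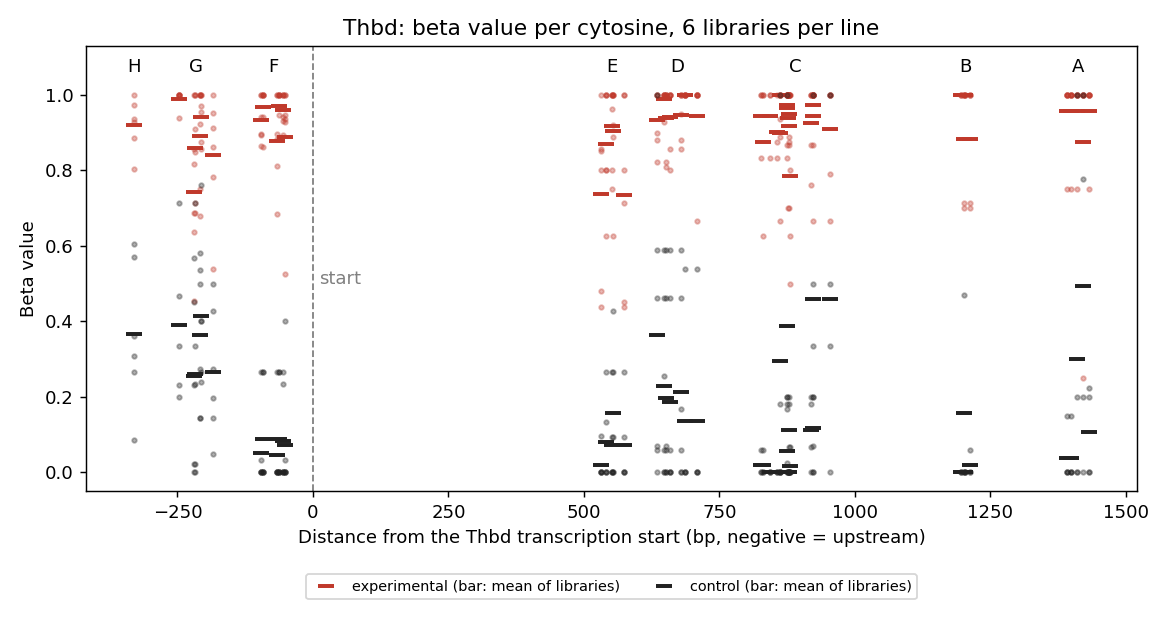
Beta value of each of the 50 Thbd cytosines against its distance from the transcription start (bp, negative upstream), with 1 point per library and a bar at the mean of each line; red is experimental, black is control, and letters name the 8 blocks. Experimental means lie between 0.734 and 1.0 and control means between 0 and 0.494, with no cytosine listed around the start.

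Blocks A and B are the deepest of the coding blocks. In block A (chr2:148406756-148406797, 5 cytosines) 5 experimental libraries were at a beta value of 1.0 and day 16 was at 0.65. The 4 control libraries that listed the block were at 0.40 on day 0, 0.18 on day 5, 0.20 on day 16 and 0 on day 20. In block B (chr2:148406975-148406992, 4 cytosines) the experimental line gave 1.0 on days 0, 5 and 20, 0.857 on day 12 and 0.700 on day 16. Control values were 0.265 on day 5 and 0 on days 0, 9, 16 and 20. The lines did not overlap in either block, and day 16 was the lowest experimental library in both. A library was given a block value only where it listed at least 50% of the block's cytosines.

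Block C (chr2:148407234-148407362, the second sequence above) held 16 cytosines, the most of any block. Experimental values were 0.944 on day 0, 0.920 on day 5, 0.894 on day 9, 0.994 on day 12 and 0.914 on day 16. The control line gave 0.050 on day 5, 0.108 on day 9 and 0.0458 on day 20, and its other 3 libraries listed too few of the cytosines for a block value. Of these, day 0 listed 6 of the 16 with a mean of 0.50, day 16 listed 7 with a mean of 0.286, and day 12 listed none. The difference of 0.865 between the lines thus rests on 5 and 3 libraries, and the control libraries left out had higher values than those kept.

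Blocks D and E lie nearest the start within the coding sequence, under the first sequence above. In block D (chr2:148407479-148407553, 7 cytosines) the experimental line ranged from 0.902 to 1.0, with a median of 0.964. The control line ranged from 0 on day 12 to 0.462 on day 0, with a median of 0.217. In block E (chr2:148407614-148407657, 5 cytosines) the experimental line ranged from 0.575 on day 16 to 0.941 on day 0, and the control line from 0 on days 5 and 20 to 0.213 on day 0. Block D was the coding block with the widest spread among control libraries, and block E the one with the lowest mean in the experimental line, 0.833 ± 0.135 (SD, n = 6).

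In 3 of the 4 control libraries with intermediate values in block D, neighbouring cytosines shared 1 value. On day 0 all 5 listed cytosines had the same beta value, 0.462, and on day 9 the same 5 of 7 cytosines had 0.588 in place of it. On day 5, 5 of 7 were at 0.0588, and on day 12 all 7 were at 0. Day 20 went the other way, with 6 of 7 cytosines between 0 and 1, at most 2 of them alike and a range of 0.538. In block F, 5 of 6 control cytosines were at 0.267 on day 5, while on day 20 5 were intermediate with at most 2 alike. A repeated value was therefore found in some control libraries and not in others.

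Upstream of the start, the block closest to it was the one with the larger difference. In block F (chr2:148408240-148408283, 52 to 95 bp upstream, 6 cytosines) the experimental line ranged from 0.833 to 1.0, with a median of 0.924. Control values there were 0 on days 0, 9, 12 and 16, 0.289 on day 5 and 0.139 on day 20. In block G (chr2:148408372-148408436, 184 to 248 bp upstream, 6 cytosines) the experimental line ranged from 0.797 to 0.962 and the control line from 0.207 to 0.607. At the single cytosine of block H (chr2:148408518, 330 bp upstream) the experimental line ranged from 0.805 to 1.0 and the control line from 0.0864 to 0.606. The lines did not overlap in any of the 3 upstream blocks, nor in any of the 5 coding blocks.

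On the upstream side, the control line was thus more methylated away from the Thbd start than next to it. In the control line block F had a mean beta value of 0.0713 ± 0.120 (SD, n = 6) and the cytosines of blocks G and H together 0.319 ± 0.119 (SD, n = 6), and the farther cytosines were higher in 6 of 6 libraries. Among these, day 12 listed only 2 of the 6 cytosines of block G, too few for a block value, besides that of block H. In the experimental line the values were 0.934 ± 0.0621 and 0.884 ± 0.0537 (SD, n = 6), with the farther cytosines higher in 1 library and lower in 5. The coding side did not show this order. From the block nearest the start outward, control means were 0.0803 in E, 0.226 in D, 0.0680 in C, 0.0529 in B and 0.195 in A. They cover the libraries with a block value, so block C leaves out its higher control libraries. The comparison was made after the values were seen and has no test.

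Across the 8 blocks the mean beta value of the experimental line stayed between 0.833 in block E and 0.957 in block D. In the control line it lay between 0.0529 in block B and 0.366 in block H. The control day 12 library had a block value only in D, F and H, so leaving it out could change only those. Without it the difference between the lines in block D was 0.685 in place of 0.730, and F and H moved by less. Without the experimental day 16 library the difference in block A was 0.805 in place of 0.747. Neither library decided the direction in any block where it had a value.

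Where both strands of a CpG were listed, they differed on average by less than the lines did. There were 7 such CpGs in the window, and the absolute difference between strands had a mean of 0.114 over 29 pairs of experimental values and 0.150 over 21 pairs of control values, with a largest difference of 0.50 in each line. Averaging the strands first left the difference between the lines over the stretch described next at 0.777.

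**Figure D2:**
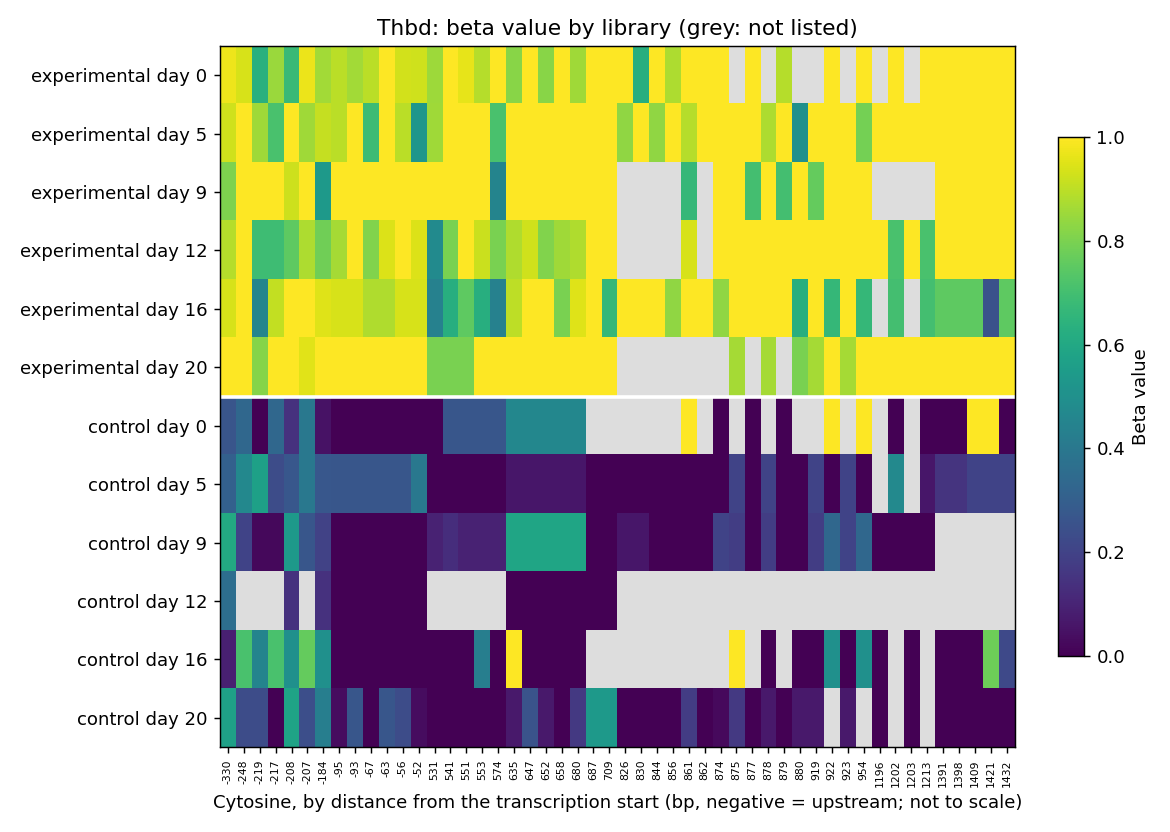
Beta value of the 50 Thbd cytosines (columns, labelled by distance from the start in bp, upstream negative, not to scale) in each of the 12 libraries (rows); colour runs from 0 to 1 and grey marks cytosines that a library did not list. The upper 6 rows are experimental and almost all at high values, and the control day 12 library lists 16 of the 50.

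The longest run of consecutive listed cytosines with a mean difference of at least 0.5 held 35 cytosines over 1137 bp (chr2:148407269-148408405), from 919 bp downstream to 217 bp upstream of the Thbd start. Just outside it, the cytosine at 148407266 had a mean of 0.944 in the experimental line and 0.458 in the control line. The cytosine on the upstream side, at 148408407, had 0.742 and 0.254. Both edges depended on the threshold of 0.5, since the differences just outside were 0.486 and 0.488 and all cytosines beyond them were also higher in the experimental line. At the upstream edge the control mean was 0.261 just inside and 0.254 just outside, while the experimental mean went from 0.860 to 0.742.

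In each library a mean was taken over those of the 35 cytosines of the stretch that it listed, so the libraries do not cover the same cytosines. The experimental line gave 0.918 on day 0, 0.914 on day 5, 0.925 on day 9, 0.899 on day 12, 0.882 on day 16 and 0.952 on day 20. The control line gave 0.221, 0.109, 0.152, 0.0190, 0.204 and 0.123 on the same days. The 6 experimental libraries lay close together and far above the 6 control libraries, with means of 0.915 ± 0.0238 and 0.138 ± 0.0731 (SD, n = 6 each). Over the 13 cytosines of the stretch listed in all 12 libraries, the means were 0.930 ± 0.0447 and 0.172 ± 0.0852 (SD, n = 6 each). There the highest control library was day 9, at 0.283, and day 0 was at 0.192, so the order of the control days depends on the cytosines covered.

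The extent of the stretch depended on how it was drawn. A difference of at least 0.3 took in all 50 cytosines and 1763 bp. With cytosines listed in all 12 libraries only, the run held 14 cytosines over 1011 bp, and with the experimental mean taken over days 5 to 20 it held 33 over 1250 bp. Only 4 of the 50 cytosines had a difference below 0.5, with the smallest, 0.381, at 148406767 in block A. The 11 cytosines listed in fewer libraries were listed in the experimental line alone at 10 and in the control line alone at 1. All 11 experimental values at them were 1, including those 768 and 2047 bp upstream, for which there was no control value.

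The nearest cytosines beyond the Thbd window were methylated in both lines. Beyond the gene end, 3 cytosines at chr2:148402881-148403033 had a mean of 0.967 ± 0.0565 in the experimental line and 0.912 ± 0.0780 in the control line (SD, n = 6 each). Upstream, 6 cytosines at chr2:148415847-148415916 had 0.956 ± 0.0367 and 0.978 ± 0.0328 (SD, n = 6 each). The values of the lines overlapped at both places.

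The control line therefore held a dip in methylation at Thbd between methylated flanks. The experimental line was high on both sides and at the cytosines listed between them. Both ends of the dip lay within the 12814 bp between those flanking cytosines, which include 3723 bp on the downstream side and 7329 bp on the upstream side with no cytosine listed often enough. Within 50 kb of the window, 85 flanking cytosines were listed in at least 3 libraries of each line. At 0 of the 85 did every experimental library lie above every control library, and 0 had a mean difference of 0.5 or more in either direction. The control mean was above 0.8 at 68 of them and the experimental mean at 53, and low values in both lines occurred near Sstr4. The difference between the lines had a median of -0.02 and ran from -0.470 to 0.333.

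**Figure D3:**
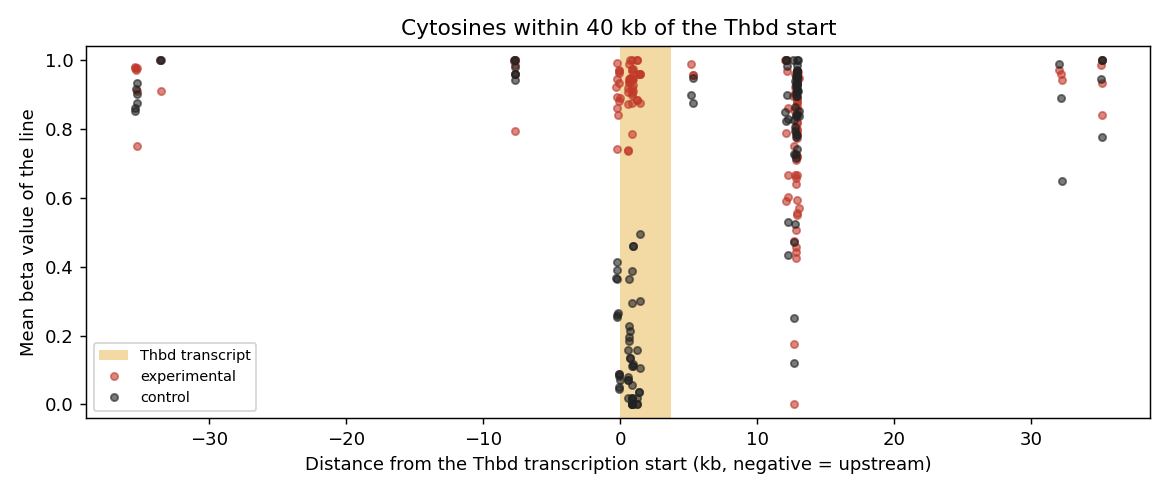
Mean beta value of each line at cytosines within 40 kb of the Thbd start (x axis in kb, negative upstream; red experimental, black control; shaded, the transcript). Control means below 0.5 at Thbd stand between flanking cytosines that mostly have high means in both lines, apart from some downstream near Sstr4.

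Neither neighbouring gene showed what was seen at Thbd. Sstr4, a somatostatin receptor gene, starts 12811 bp from the Thbd start, and its promoter (17 cytosines) averaged 0.773 ± 0.121 (SD, n = 5) on experimental days 5 to 20 and 0.827 ± 0.0830 (SD, n = 6) in the control line. The M-value, log2((beta + 0.01)/(1 - beta + 0.01)), differed by -0.44 (SE 0.54, adjusted p-value 0.707 from limma with Benjamini-Hochberg adjustment over 12236 promoters). Cd93, which encodes a relative of thrombomodulin, starts 35347 bp away and had 2 usable cytosines, too few for the test. Its 2 cytosines had 0.986 ± 0.0199 (SD, n = 5) in the experimental line and 0.856 ± 0.164 (SD, n = 6) in the control line.

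The difference at the Thbd promoter was already present before doxycycline. The promoter window (chr2:148407689-148409688) covered 1500 bp before the start and 500 bp after it and held 9 cytosines listed in all 12 libraries. All 9 lay in blocks F, G and H, from 52 to 330 bp upstream of the start, so the promoter values describe that part of the window only. On day 0 its beta value was 0.892 in the experimental line and 0.0506 in the control line. That difference of 0.841 ranked 3 among 12236 promoters, of which 26 differed by 0.5 or more in the same direction on day 0, while the median absolute difference was 0.0262. The 2 lines therefore differed at Thbd before Cre was induced. With experimental days 5 to 20 set against all control days the difference was 0.764, smaller than on day 0. Whether Sdhc loss changed it in the later libraries was not tested, apart from the change over days given below.

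After day 0 the experimental Thbd promoter was at 0.871 on day 5, 0.918 on day 9, 0.887 on day 12, 0.935 on day 16 and 1.0 on day 20. The control promoter was at 0.287, 0.149, 0.0719, 0.121 and 0.268 on those days. The experimental line stayed high and the control line low at each time point. Over days 5 to 20 the experimental mean was 0.922 ± 0.0502 (SD, n = 5), against 0.158 ± 0.0993 (SD, n = 6) over all control days. The difference of 0.764 between the lines was the largest of the 12236 promoters in that direction, and the next was 0.575 at Hoxa6, a homeobox gene. Thbd was the 1 promoter (0.00817%) with an experimental mean above 0.8 and a control mean below 0.2, and 0 had the reverse. Thbd was picked for this contrast, so its rank restates that choice and nothing is read from it.

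The change over days within a line was not used to choose Thbd and was tested. In limma the M-value of the Thbd promoter changed by 0.15 per day in the experimental line (SE 0.06, p-value 0.0306, Benjamini-Hochberg adjusted p-value 0.969) and by 0.06 per day in the control line (SE 0.06, adjusted p-value 1.0). The slopes differed by 0.09 per day (SE 0.09, adjusted p-value 0.998 from limma). None passed the threshold of 0.05. Without the experimental day 20 library the experimental slope was 0.04 per day, and without day 0 it was 0.23. No promoter in the series passed it in any of the 3 tests, in which 610 (4.99%), 731 (5.97%) and 617 (5.04%) had an unadjusted p-value under 0.05.

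An exact permutation test over the 6 days of a line, two-sided, gave a like answer for Thbd. In the experimental promoter Pearson's r with day was 0.80 (p-value 0.0472, adjusted over 4 relations 0.189) and Spearman's rho 0.714 (p-value 0.136, adjusted 0.396), by exact permutation, with r at 0.752 without the days farthest from the median day. In the control promoter r was 0.316 (exact permutation p-value 0.547, adjusted 0.717) and rho 0.257 (p-value 0.658, adjusted 0.658), and r turned to -0.80 without the 2 farthest days. For the 13 cytosines of the stretch listed in all 12 libraries, r was 0.659 in the experimental line (exact permutation p-value 0.147, adjusted 0.294; rho 0.543, p-value 0.297, adjusted 0.396) and -0.232 in the control line (exact permutation p-value 0.717, adjusted 0.717; rho -0.543, p-value 0.297, adjusted 0.396). Without the 2 farthest days these became -0.0541 and -0.417, so the experimental value for the stretch rests on those days. No relation with day passed after adjustment.

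The Thbd promoter varied more between days than most promoters in the control line. Its SD over 6 libraries was 0.0993 in the control line, larger than that of 87.5% of promoters, and 0.0465 in the experimental line, larger than that of 68.1%. The median promoter had an SD of 0.0292 and 0.0266. Promoters were not matched by mean beta value or number of cytosines, so the ranks do not set Thbd apart from promoters like it.

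**Figure D4:**
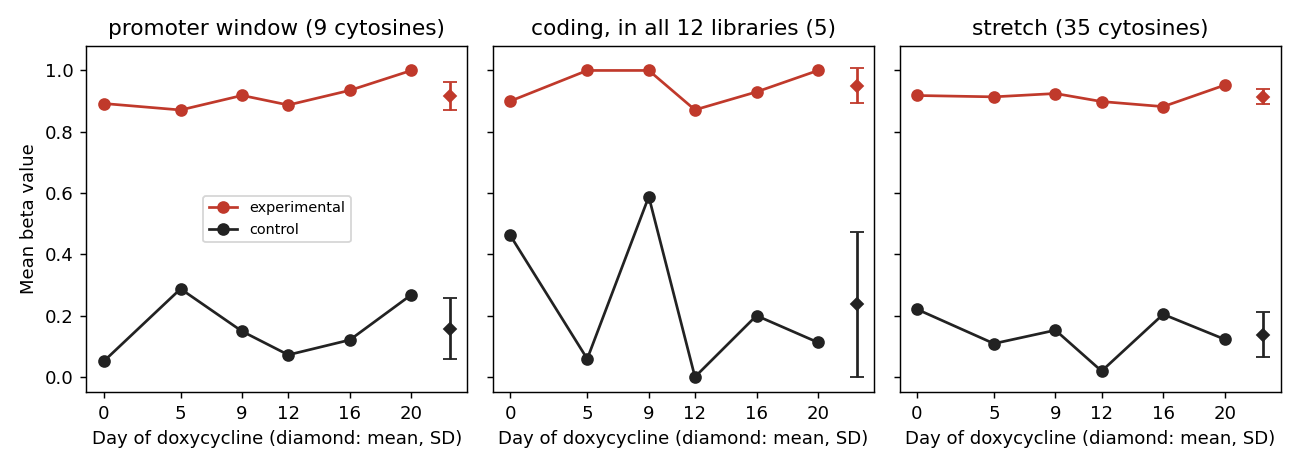
Mean beta value by day of doxycycline in the promoter window, in the 5 coding cytosines listed in all 12 libraries and in the stretch of 35 cytosines; lines join the 6 libraries of the experimental (red) and control (black) lines, and diamonds with bars give mean and SD over days. The experimental line is above the control line on each day from day 0, and the coding cytosines of the control line reach 0.588 on day 9. Means of the stretch use the cytosines that each library listed.

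Genes that act with or near thrombomodulin were examined next, in the contrast of experimental days 5 to 20 with the 6 control libraries. Of 12236 promoters, limma called 246 (2.01%), with 175 (1.43%) higher and 71 (0.58%) lower in the experimental line at a Benjamini-Hochberg adjusted p-value under 0.05. Of 50 listed genes, 24 had a tested promoter, with at least 3 cytosines listed in all 12 libraries, and 0 of the 24 was called by limma in either direction. At an unadjusted p-value under 0.05 there were 4 of 24, against 18.9% of all promoters. The median beta difference over the 24 was 0.0366, and over all promoters it was 0.00575.

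In the thrombin and protein C pathway, 5 of 15 genes were tested and 0 called. Pros1, encoding protein S, the cofactor of activated protein C, had a promoter beta value of 0.0596 in the experimental line and 0.0227 in the control line. F2r, the thrombin receptor PAR1, had 0.0123 and 0.0260. F2rl1, the receptor PAR2, had 0.181 and 0.126. These promoters were at low values in both lines, as was that of Serpine2, a thrombin inhibitor, with 0.0935 and 0.0571 (adjusted p-value 0.250 from limma). Serpina5, the protein C inhibitor, was high in both, at 0.743 and 0.661. The median beta difference of the 5 was 0.0368.

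Of the other 2 members of the lectin group besides Cd93, both were tested and 0 called. Cd248, which encodes endosialin, had 0.0363 in the experimental line and 0.0244 in the control line, and Clec14a had 0.286 and 0.344. In the tissue factor and fibrinolysis list 5 of 9 genes were tested and 0 called, with control means from 0.000975 to 0.0473 and a median beta difference of 0.0530. Plat, encoding tissue plasminogen activator, had 0.0919 and 0.0389, with every experimental library above every control library (2.9% of all promoters had that order) and an adjusted p-value of 0.161 from limma. F3, tissue factor, had 0.0178 and 0.0473.

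Of 6 transcription factor genes known to act on Thbd, 2 were tested and 0 called. Klf4, a Krüppel-like factor that raises thrombomodulin in endothelium, had 0.0337 and 0.0134 (adjusted p-value 0.311 from limma), and Rara, a retinoic acid receptor, had 0.863 and 0.807. The median beta difference of these 2 was 0.0379.

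Endothelial and fibroblast genes were listed because Thbd is an endothelial gene measured here in fibroblasts. Of 11 endothelial genes 6 were tested and 0 called, with control means from 0.430 to 0.839 and a median beta difference of 0.0803. The nearest to the threshold was Esam, a cell adhesion gene, at 0.663 in the experimental and 0.430 in the control line, with every experimental library above every control library and an adjusted p-value of 0.0747 from limma. It passed with an offset of 0.05 in the M-value (adjusted p-value 0.0414 from limma) and on beta values (0.0435). Nos3, endothelial nitric oxide synthase, had 0.924 and 0.702 (adjusted p-value 0.170 from limma). Of the 6, 4 had a higher mean in the experimental line and 2 a lower one. The lower 2 were Cldn5, at 0.532 and 0.633, and Kdr, at 0.601 and 0.659.

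Of 6 fibroblast genes 4 were tested and 0 called, with a median beta difference of 0.0160. Vim and Fn1, which encode vimentin and fibronectin, were near 0 in both lines, at 0.0114 and 0.00370 in the experimental line. Col1a2 and Pdgfra, a collagen and a growth factor receptor gene, were at 0.891 and 0.728 in the experimental line and 0.867 and 0.656 in the control line. Methylation was not used to name the cells.

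**Figure D5:**
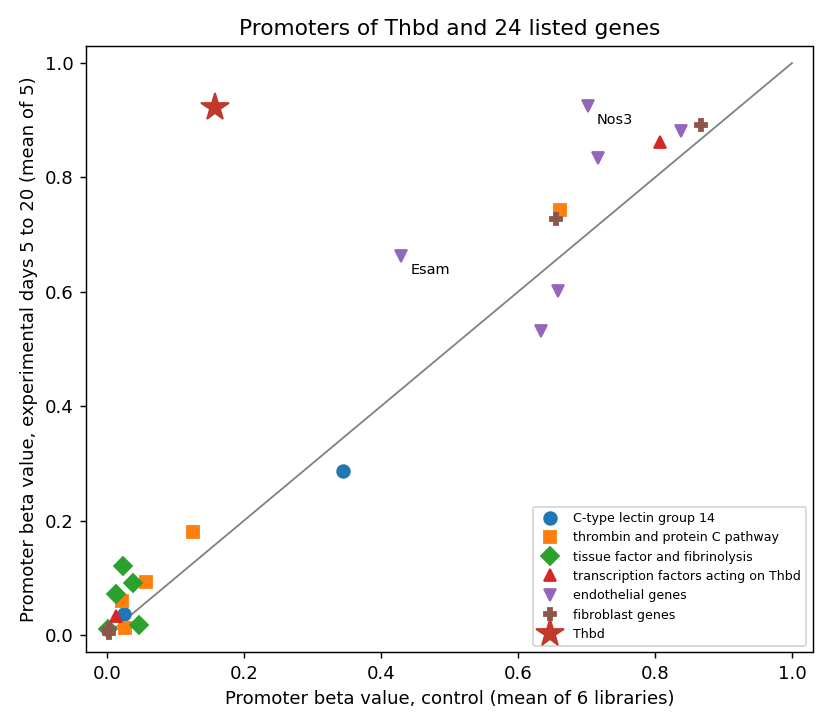
Promoter beta value of Thbd (star) and the 24 tested listed genes in the experimental line on days 5 to 20 (y axis, mean of 5 libraries) against the control line (x axis, mean of 6), with the line of equality in grey. Thbd lies at 0.922 against 0.158, while the listed genes lie nearer the line, with Esam and Nos3 farthest above it.

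The promoters whose beta value followed that of Thbd most closely over the 12 libraries, among 9658 with at least 5 cytosines, included those of Sh2b3 (Pearson's r 0.958), Hoxd4 (0.955), Rab3a (0.955) and Hoxa6 (0.954). Each of these 4 was higher in the experimental line, with means over 6 libraries of 0.642, 0.562, 0.505 and 0.880 against 0.237, 0.149, 0.106 and 0.303 in the control line. The likeness is mostly the separation of the lines, which all 12 points share, and 41 of the 9658 had r of at least 0.9. Ranked by Spearman's rho, 0 of the 5 promoters with the highest r came out.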

How the data were processed

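Bismark was used by the authors to map the RRBS reads (mm10) and to extract CpG calls, and the deposited values are the percent of methylated reads at each cytosine of each library. Percents were divided by 100. Read depth was not used here, so no coverage minimum was set. Of the study's RnBeads filters, removal of the sex chromosomes was applied here. Libraries were grouped by the genotype in their labels.

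Promoter values used the 606488 autosomal cytosines that every library listed, less 98137 with 1 value throughout. Promoters covered 1500 bp before and 500 bp after the RefSeq start (GRCm38.p6, the assembly of mm10), with the strand from RefSeq promoter records or, by symbol, from GENCODE vM1. A strand was found for 19992 of 20661 protein-coding genes, and where both sources gave 1 it was the same for 15485 of 15527. A promoter needed 3 cytosines, which left 12236. Transcript bases of Thbd came from GENCODE vM1, and no coordinate of that older build was used. All 46 listed cytosines in the transcript fell on its CpGs.

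M-values (offset 0.01) were fitted with limma and adjusted by Benjamini-Hochberg, in a contrast of experimental days 5 to 20 with all control days and in a fit with a slope on day per line. Residual spread is that between days of 1 line. The plan gave this test for percent values. Both fits were first tested on simulated promoters. Thbd and the gene lists (lectin group, thrombin and protein C pathway, tissue factor and fibrinolysis, transcription factors, endothelial and fibroblast genes) were chosen with earlier results of these data known. Named besides these were genes starting within 250 kb and the 5 promoters most correlated with Thbd, of which 1 is not reported here. Alternatives were another offset, beta values, other site minimums, constant cytosines kept, a day block, other windows and thresholds, and each library left out. The software was limma 3.58.1 in R 4.3.3, and scipy 1.17.1, pandas 2.3.3, numpy 2.4.6 and matplotlib 3.10.9 in Python 3.11.15. Expression of Thbd was not analysed here.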

Additional observations from a re-analysis of the deposited data

Results flagged for a closer look

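Dixon's test was run on 25 sets of Thbd values, each from 4 to 6 libraries of 1 line: 15 of block values and 10 of means over the regions, which share cytosines with the blocks. In 2 of the block sets a library stood apart from the rest. About 1 in 20 sets would do so by chance alone if the values were independent and normally distributed, which these are not. In block A of the experimental line, day 16 had a beta value of 0.65 while the other 5 libraries were all at 1.0. In block B of the control line, day 5 had 0.265 while the other 4 libraries that listed the block were all at 0. In both, the other libraries had no spread at all, so any library that departed from them would have been flagged.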

How the results depend on the processing

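Of 165 alternative values, 138 kept direction and side of the threshold or moved by less than the spread between libraries. Some of the 138 could not move. These include the slope of 1 line when a library of the other was left out, and blocks in which the left-out library had no value. They also include the promoter window cut to 500 bp on each side, which held the same 9 cytosines. The count is therefore no measure of stability. The Thbd stretch had 50, 14 or 33 cytosines and 1763, 1011 or 1250 bp in place of 35 and 1137 under the 3 other ways of drawing it given above, and Spearman's rho kept 0 of the 5 promoters most like Thbd. The experimental slope of the Thbd promoter ranged from 0.0418 (without experimental day 20) to 0.230 (without experimental day 0). Without day 0, or without the control day 0 library, the control slope turned to -0.0111 per day (range over left-out libraries -0.0111 to 0.105), and without the experimental day 20 library the difference of slopes turned to -0.0186 (range -0.0186 to 0.169). Promoters called higher and lower numbered 304 and 148 with an offset of 0.05, and 282 and 128 on beta values, each with 1 listed gene, Esam, called. Leaving out a library gave 82 to 176 higher and 32 to 76 lower. The count moved by over 1.5 times without experimental day 5 (87 and 36), experimental day 12 (82 and 32), control day 16 (110 and 45) or control day 20 (102 and 46), and for lower calls without control day 9 (47). The lines share day numbers, but same-day libraries did not deviate together (6 correlations from -0.037 to 0.0169, 0 of 6 best with its own day), so the replicate block by day, with 12 higher and 8 lower, is no paired test; with it the Thbd slopes differed by 0.09 per day as before (adjusted p-value 0.998 from limma). The cause of these shifts was not tested. The unknown depth limits single cytosines most.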
